A study of Homo sapiens with 2 samples.

Results

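The genes of the inhibitors of cyclin-dependent kinases (CDKs) were read across 2 RNA sequencing libraries of human cells at day 3 of differentiation towards blood. The group held 8 genes, taken by name and matched through their gene numbers: CDKN1A, CDKN1B, CDKN1C, CDKN2A, CDKN2B, CDKN2C, CDKN2D and CDKN3. All 8 were found among the 18518 genes listed in 1 table or more, and 6 of them reached the minimum of 10 counts in 1 library that was set for comparing genes. The group was chosen by these same values, because most of its members were known to be higher in the library labelled MEIS1 deleted, so the differences below describe these libraries and carry no test.

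The wild-type library was made from H1 cells, a line of human embryonic stem cells, and the other from H1 labelled MEIS1-/-. MEIS1 encodes a homeodomain transcription factor that acts with HOX and PBX proteins. Both cultures had 2 days of activin A (40 ng/ml) with BMP4 (50 ng/ml), followed by 2 days of VEGF (40 ng/ml) with bFGF (50 ng/ml), and day 3 falls in the later step. There was 1 library per genotype, and the labels named no clone and no deleted part of MEIS1. No replicate check of any difference was therefore possible.

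CDK inhibitors hold back the cell cycle. The CIP/KIP proteins p21 (CDKN1A), p27 (CDKN1B) and p57 (CDKN1C) bind complexes of cyclins with several CDKs, CDK2 among them, while the INK4 proteins p16 (CDKN2A), p15 (CDKN2B), p18 (CDKN2C) and p19 (CDKN2D) bind CDK4 and CDK6 and keep D-type cyclins from activating them. CDKN2A also encodes ARF, which stabilises p53 and is read in another frame. CDKN3 belongs to neither family: it is a phosphatase that removes the activating phosphate from CDK2, and its RNA is made mainly in cycling cells. Human embryonic stem cells are known for a short G1 phase, which lengthens as they differentiate.

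Start regions of 4 members with higher counts in the library labelled MEIS1 deleted are shown, because these genes differed in the same direction. Each window runs from 250 bases before the start to 50 after it, is from RefSeq (GRCh38.p14) and is written 5′ to 3′ on the gene's strand. Capitals mark matches, on either strand, to 4 motifs: the letters GGGCGG known as a GC box, the letters CCAAT, the letters TTTGAA at the core of the cell cycle element called CHR, and the letters GGCGGGA of an E2F-type site, which can overlap a GC box.
CDKN1A, chr6:36678464-36678763, plus strand: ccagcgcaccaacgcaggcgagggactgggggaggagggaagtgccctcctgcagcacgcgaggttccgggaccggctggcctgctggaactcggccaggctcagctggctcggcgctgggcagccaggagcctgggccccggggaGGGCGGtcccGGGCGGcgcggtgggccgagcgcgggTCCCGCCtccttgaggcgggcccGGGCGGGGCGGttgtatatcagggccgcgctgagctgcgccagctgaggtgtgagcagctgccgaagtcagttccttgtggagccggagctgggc
CDKN1B, chr12:12717118-12717417, plus strand: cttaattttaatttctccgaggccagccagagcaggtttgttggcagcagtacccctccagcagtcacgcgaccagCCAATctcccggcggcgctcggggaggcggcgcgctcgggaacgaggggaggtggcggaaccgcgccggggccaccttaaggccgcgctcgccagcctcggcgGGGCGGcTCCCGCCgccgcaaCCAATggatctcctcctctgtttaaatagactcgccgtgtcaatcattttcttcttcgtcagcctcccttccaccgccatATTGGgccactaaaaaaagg
CDKN2B, chr9:22009256-22009555, minus strand: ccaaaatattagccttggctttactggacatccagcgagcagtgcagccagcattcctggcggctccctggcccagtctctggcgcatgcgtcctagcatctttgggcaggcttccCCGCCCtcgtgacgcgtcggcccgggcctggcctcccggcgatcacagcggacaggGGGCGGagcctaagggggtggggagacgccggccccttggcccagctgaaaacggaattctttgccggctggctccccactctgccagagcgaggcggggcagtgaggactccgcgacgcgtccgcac
CDKN3, chr14:54396757-54397056, plus strand: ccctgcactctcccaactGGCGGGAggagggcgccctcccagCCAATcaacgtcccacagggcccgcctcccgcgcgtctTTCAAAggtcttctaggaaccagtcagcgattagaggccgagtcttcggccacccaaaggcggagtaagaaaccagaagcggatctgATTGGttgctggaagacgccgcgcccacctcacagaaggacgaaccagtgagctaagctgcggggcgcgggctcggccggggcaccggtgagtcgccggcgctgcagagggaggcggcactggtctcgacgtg

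The windows differed in their motifs. CDKN1A held 4 GC boxes and 1 E2F-type site, CDKN1B 1 GC box, 3 matches to CCAAT and 1 E2F-type site, and CDKN2B 2 GC boxes alone. CDKN3 held the only TTTGAA match among the members' windows, beside 2 matches to CCAAT and 1 E2F-type site, and had no GC box. Of 35116 windows of this length in the table, 44.95% held GGGCGG, 34.61% CCAAT, 15.16% TTTGAA and 15.37% GGCGGGA. The core that MEIS proteins bind, TGACAG, was in none of the 4 windows shown and in 15.76% of all. It occurred in windows of 1 member, CDKN2C, where 2 of the 3 windows held 2 matches each. The letters TATAAA of the promoter element named for them, found in 11.53% of all windows, were in no window of a member. The E-box letters CACGTG, in 7.256% of all, were in 2 windows of CDKN2C. In all, 7 members had 10 windows, and CDKN1C was not among them.

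The libraries held 5202875 and 5296440 estimated counts and listed 17562 and 17696 genes. MEIS1 itself was read 89 times in the former and 68 times in the latter, a ratio of 0.758 with an exact 95% interval of 0.542 to 1.05 that covers counting error only, as do all intervals below. That interval includes 1, so the MEIS1 level did not check the label. Markers of other cell types moved between the libraries. All 11 haemato-endothelial markers were higher (summed level 247.7 FPKM in wild type and 385.8 in the other, where FPKM is a count divided by gene length and library depth), none was at 0, and 5 of 6 fibroblast and smooth muscle markers with enough counts were higher (543.1 and 708.9 FPKM), with DCN at 0 in both libraries. Of 6 pluripotency markers with enough counts 4 were lower (681.6 and 552.7 FPKM) and none was higher. Mesoderm markers split in number but not in size, with 3 of 6 higher and 3 lower (486.9 and 499.1 FPKM). Their median log2 ratio was -0.61. The lower were EOMES (ratio 0.241), MIXL1 (0.351) and TBXT (0.376), all at least 1.5-fold lower. The higher were PDGFRA (1.37), HAND1 (1.19) and KDR (1.14), none of them 1.5-fold higher, and KDR is also among the haemato-endothelial markers. Endoderm markers were lower in 2 of 6 (144.6 and 109.8 FPKM), and neural markers in 1 of 3 (140.2 and 123.4 FPKM), with SOX1 at 0 in both. The 8 blood cell markers given here summed to 1.54 and 3.04 FPKM, with HBE1, HBZ, HBG1 and CD14 at 0 in wild type and HBZ, HBG1 and CD33 at 0 in the other library. The part of these markers in the differences below was not tested. In bulk RNA, fewer cells of a type and less RNA per cell cannot be told apart.

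Most of the inhibitor genes with enough reads were modestly higher in the library labelled MEIS1 deleted. Of the 6 members compared, 5 had a counting interval above 1, 0 had one below it and 1 included it. Over all 14381 genes compared, 15.2% had an interval above 1 and 14.9% one below it. Because the members were chosen on this comparison, nothing is read from the contrast between these shares. The 5 log2 ratios ran from 0.23 to 0.72, and the median of the 6 members was 0.44, against 0.00089 over all genes compared. The 5 intervals shared the range from 0.30 to 0.40 on the log2 scale, and differences in size between members were not tested. Among genes with 50 counts or more, which include the 5 higher members, the shares were 17.2% and 16.9%. At least 1.5-fold was reached by CDKN3 alone, where 5.74% of all genes compared were that much higher with an interval above 1 and 6.25% that much lower with one below it. No compared member reached 2-fold, which 2.9% of all genes did in the higher and 2.95% in the lower direction.

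**Figure D1:**
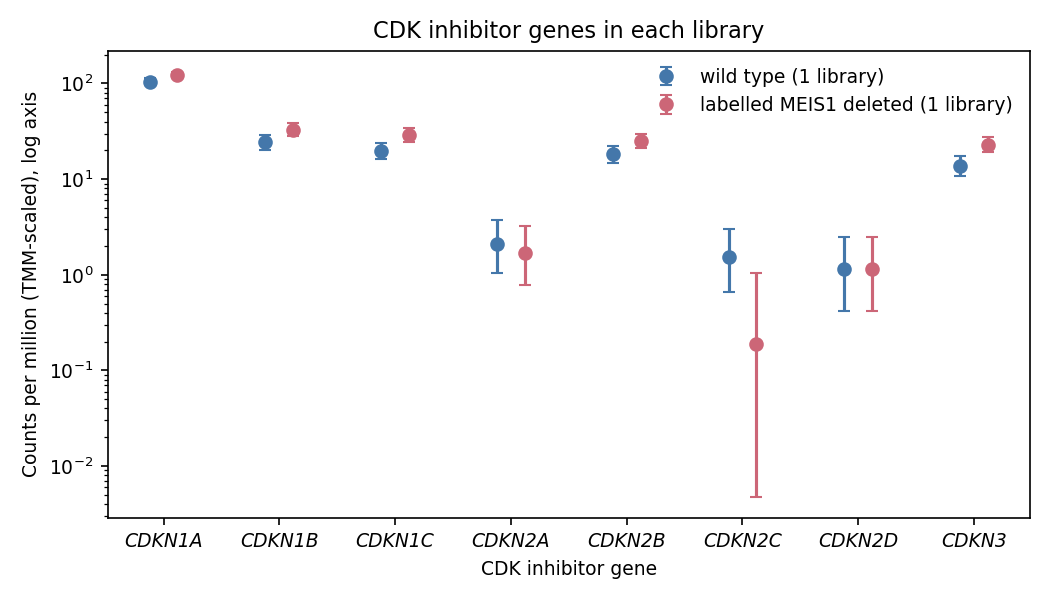
CPM, the count per 1000000 counts of the TMM-scaled library total, drawn on a log axis, for each CDK inhibitor gene in the wild-type library (blue) and the library labelled MEIS1 deleted (red). Bars are exact 95% Poisson intervals of 1 library each: CDKN1A lies at 103.9 and 122.1, and CDKN2A, CDKN2C and CDKN2D lie far below the other 5.

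All members of the CIP/KIP family were higher. CDKN1A, on chromosome 6, encodes p21, the inhibitor that p53 induces. Its counts were 542 in the wild-type library against 645 in the one labelled MEIS1-/-, or 103.9 and 122.1 CPM, and thus 1.18-fold higher (1.05 to 1.32). This was the smallest difference among the 5 higher members, on the most counts. The exons of CDKN1A overlap those of DINOL, a noncoding gene on the other strand, in GENCODE 29, and the labels do not say whether the kit kept strand, so reads of both could not be told apart.

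CDKN1B, on chromosome 12, encodes p27, an inhibitor controlled to a large degree by protein breakdown. Its counts were 127 and 174, at 24.3 and 32.9 CPM, 1.35-fold higher (1.07 to 1.72). CDKN1C, on chromosome 11, encodes p57 and is an imprinted gene expressed from the maternal copy. Its 103 and 153 counts, or 19.7 and 28.97 CPM, made it 1.46-fold higher (1.14 to 1.90), the largest ratio in its family. The deposited length of CDKN1C, an average over its 3 transcripts weighted by their estimated share, was 1813 bases in wild type and 1789 in the other library, a change of -1.30%. For CDKN1A, with 4 transcripts, that change was 0.098%. Summed over the family, the counts were 772 and 972, a ratio of 1.24 (1.13 to 1.37).

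The INK4 family was low apart from CDKN2B. CDKN2B, on chromosome 9, encodes p15, an inhibitor that TGF-beta induces. It had estimated counts of 96.18 and 132.81, rounded to 96 and 133, and was 1.37-fold higher (1.05 to 1.80). CDKN2A, its neighbour on the chromosome, had 10.82 and 9.19, rounded to 11 and 9, with a ratio of 0.823 (0.296 to 2.15), an interval too wide to give a direction. Counts of this kind are not whole where reads fit more than 1 gene and are divided between them.

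The estimated counts of CDKN2A and CDKN2B added up to exactly whole numbers, 107 for the wild type and 142 for the MEIS1-/- label. The genes are known to be close in sequence, and a read that fits both cannot be assigned to 1 of them. With the counts of both genes summed, the ratio was 1.31 (1.01 to 1.70), so the sum was higher with a lower limit close to 1. How these reads divide between p15 and p16 is an estimate, and the ratio of CDKN2A by itself is uncertain for that reason too. CDKN2A exons also overlap those of CDKN2B-AS1, a noncoding RNA (ANRIL) from the other strand. Its estimated counts were 35.57 and 71.73, rounded to 36 and 72, 1.95-fold higher (1.31 to 3.04). With all 3 genes summed, the ratio was 1.48 (1.19 to 1.84). These sums, 142.57 and 213.73, were not whole while those of CDKN2A with CDKN2B were. The counts thus show no division of reads between that pair and CDKN2B-AS1. MTAP, the next coding gene of the locus and an enzyme gene of methionine salvage, had 527 and 468 counts and was lower, at a ratio of 0.878 (0.773 to 0.996), but with DESeq2 size factors its interval included 1 (0.782 to 1.01).

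CDKN2C and CDKN2D did not reach 10 counts and were not compared. CDKN2C, on chromosome 1, encodes p18. Its 8 wild-type counts stood against 1 in the library labelled MEIS1-/-, a ratio of 0.220 with a very wide interval (0.0028 to 0.921) that excludes 1. Its deposited length fell from 1685 to 1273 bases, which with 1 count in the latter library shows only which transcript that read was given to. CDKN2D, on chromosome 19, encodes p19 and had 6 counts in each library, a ratio of 0.988 (0.264 to 3.70). A difference in either direction of a size like those of the higher members would not be detectable for CDKN2D at this depth. For the 4 INK4 genes together the counts were 121 and 149, and the interval of their ratio included 1 (1.21, 0.951 to 1.56).

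CDKN3, on chromosome 14, differed most among the members with enough counts. Its counts were 72 and 121, at 13.8 and 22.9 CPM, which is 1.65-fold higher (1.23 to 2.26). Of the 14381 genes compared, 93.9% had a lower log2 ratio. Of 17 markers of proliferation, 9 were higher, 0 lower and 8 included 1, with a median log2 ratio of 0.13. Of all genes with 50 counts or more, 17.2% were higher and 16.9% lower. The summed level of the markers was 886.1 and 987.0 FPKM, and 0 reached 1.5-fold. The largest ratios were those of MCM7, a subunit of the replicative helicase, at 1.26-fold (1.16 to 1.37), and RRM2, a subunit of ribonucleotide reductase, at 1.24-fold (1.15 to 1.35). The lowest were PLK1 (0.912), TOP2A (0.968) and AURKA (0.993), with intervals that included 1. The part of proliferation in the level of CDKN3 was not tested. The 3 genes whose levels in the 2 libraries lay nearest to those of CDKN3, by Euclidean distance in log2(FPKM + 1), were FGFR2 (distance 0.10), KLF3 (0.12) and S100A14 (0.12). With 2 libraries this likeness rests on 2 values per gene.

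**Figure D2:**
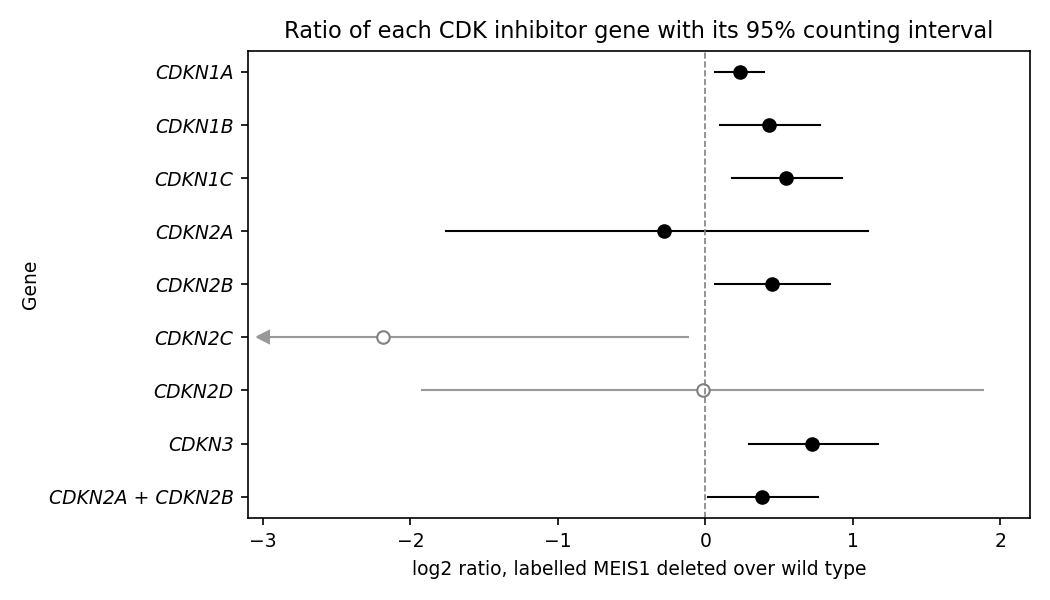
Log2 ratio of the library labelled MEIS1 deleted over wild type for each CDK inhibitor gene and for CDKN2A with CDKN2B summed, with exact 95% counting intervals. Filled points have at least 10 counts in 1 library, open points fewer, and the arrow marks an interval that runs past the axis. The dashed line is a ratio of 1, and CDKN1A, CDKN1B, CDKN1C, CDKN2B, CDKN3 and the summed pair lie to its right with their whole intervals.

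Per length, CDKN1A was the most abundant member in both libraries. Its level was 47.98 FPKM in the wild type and 56.03 FPKM in the other library, 51.5% and 46.4% of the summed level of the 8 genes. CDKN3 followed with 15.70 and 25.91 FPKM, then CDKN1C with 11.00 and 16.26, CDKN1B with 10.13 and 13.64, and CDKN2B with 4.72 and 6.40. The lowest were CDKN2A (1.77 and 1.46 FPKM), CDKN2D (1.01 and 0.99) and CDKN2C (0.92 and 0.15). This order was the same in both libraries. The counting intervals of CDKN3 and CDKN1C overlapped in wild type, those of CDKN1C and CDKN1B in both libraries, and those of CDKN2A and CDKN2D, and of CDKN2D and CDKN2C, also in both. CDKN1A stood above 92.0% of the listed genes in wild type, CDKN2B above 45.2% and CDKN2A above 29.3%.

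The summed level of the 8 genes was 93.23 FPKM in wild type and 120.8 in the other library, a difference of 27.61. CDKN3 made up 37.0% of that difference (10.21 FPKM) and CDKN1A 29.2% (8.05 FPKM), although CDKN1A had the smaller ratio. CDKN1C added 19.1%, CDKN1B 12.7% and CDKN2B 6.08%, and CDKN2A, CDKN2C and CDKN2D gave differences of -0.31, -0.77 and -0.02 FPKM.

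**Figure D3:**
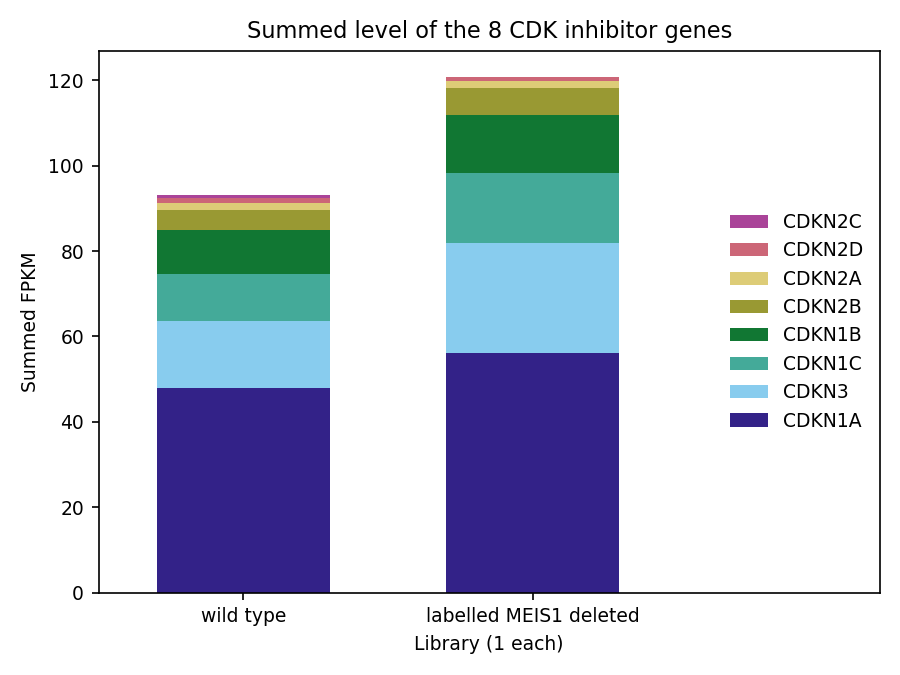
Summed deposited FPKM of the 8 CDK inhibitor genes in each library, stacked by gene with the most abundant in wild type at the bottom. The total is 93.23 FPKM for the wild type and 120.8 FPKM for the MEIS1-/- label, and CDKN1A and CDKN3 are the widest layers in the latter.

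The summed level of each family was set beside kinases that it binds. The CIP/KIP level was 2.81 times that of CDK2 in the wild-type library and 3.31 times in the other. These proteins bind several CDKs, and those other than CDK2 were left out of this ratio. The INK4 level was 0.112 and 0.106 of that of CDK4 with CDK6. No direction is read from these 2 values. The summed INK4 level was 1.07-fold higher in FPKM and 1.21-fold in counts, with a counting interval that included 1 (0.951 to 1.56). The kinases set beside the 2 families are unlike, so the families are not compared by these ratios to kinases. All are ratios of RNA levels, not of proteins, and those to kinases are in FPKM. CDK2 had 296 and 315 counts and an interval that included 1 (0.894 to 1.24). CDK4 with CDK6 was 1.07-fold higher by summed counts (1.01 to 1.14) and 1.13-fold by summed FPKM. Singly, CDK4 was 1.20-fold higher (1.06 to 1.35), and the interval of CDK6 included 1 (1.03, 0.966 to 1.11).

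Among the G1 cyclins and kinases, the partners that the inhibitors act on, 2 of 8 were higher and 1 lower (median log2 ratio 0.17). CCND1 (cyclin D1), with 2893 and 5248 counts, was 1.79-fold higher (1.71 to 1.88). CCND2 (cyclin D2) went the other way, with 922 and 707 counts and a ratio of 0.758 (0.686 to 0.837). Of 5 cyclins and kinases of S, G2 and M phase, 0 were higher and 0 lower. Among kinases and phosphatases that switch CDKs, 1 of 8 was lower, CDC25C, which activates CDK1, at a ratio of 0.683 (0.525 to 0.879). The pocket protein and E2F list, downstream of the inhibitors, had 2 of 13 higher and 0 lower: E2F1 at 1.47-fold (1.16 to 1.87) and RB1 at 1.20-fold (1.06 to 1.36). With total count scaling E2F4 was lower too, at 0.855 (0.734 to 0.995). The list of MuvB genes, partners of pocket proteins in repressing cell cycle genes, also held the gene of B-Myb, MYBL2. In this list 1 of 6 was lower, RBBP4.

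Lists of regulators of the inhibitors held both higher and lower genes. Over all genes compared, 15.2% were higher and 14.9% lower, the background for the counts of these lists and of the lists above. Genes of the ubiquitin ligases that mark p21, p27 and p57 for breakdown were higher in 3 of 13 and lower in 0. With total count scaling 2 were higher. SKP2, which recognises p27, was at 1.13-fold (1.05 to 1.22) on 1252 and 1433 counts. In the list of p53 and its targets 6 of 27 were higher, 3 lower and 18 included 1, with a median of 0.021. The higher were 5 with total count scaling and 7 with DESeq2 size factors. PLK2 was 1.34-fold higher (1.20 to 1.505), and the interval of TP53I3 included 1 (ratio 0.790, 0.606 to 1.02). The 3 lower genes were MDM4 (0.830, 0.737 to 0.934), TP53INP1 (0.876, 0.793 to 0.968) and CCNG1 (0.906, 0.859 to 0.956). Polycomb and demethylase genes, which silence or open the INK4 locus, were higher in 3 of 17 and lower in 2. The 2 lower were KDM2B (ratio 0.760, 0.668 to 0.863) and PCGF2 (0.786, 0.685 to 0.902). Among the 3 higher, BMI1, a repressor of CDKN2A, was at 1.31-fold (1.01 to 1.71). Scaled by the total count per library this list had 1 higher and 3 lower, and the interval of BMI1 included 1 (0.999 to 1.70). Of 14 transcription regulators of the CIP/KIP genes 2 were higher and 1 lower, with MYC at 1.36-fold (1.19 to 1.57) and SMAD3, which carries TGF-beta signals, at 1.28-fold (1.09 to 1.52). The lower gene, SP1, was named after its value was seen, and its interval included 1 with DESeq2 size factors (0.846 to 1.001). Of 6 genes listed for the imprinted region around CDKN1C with enough counts, 1 was higher, 1 lower and 4 included 1. KCNQ1OT1, the noncoding RNA that silences the paternal copy of this region, had a ratio of 0.845 (0.808 to 0.884). IGF2, a growth factor gene, was 1.92-fold higher (1.80 to 2.05). PHLDA2 was among the 4 (1.13, 0.655 to 1.98). Across the 137 genes of these 12 lists with enough counts, 29 (21.2%) were higher and 11 (8.03%) lower, beside 15.2% and 14.9% of all genes compared. Their median log2 ratio was 0.068. The list of proliferation markers alone gave 9 of the 29 and 0 of the 11. With a minimum of 50 counts the 29 and 11 were unchanged, and the shares over all genes were 17.2% and 16.9%. Scaled by the total count, 25 were higher and 13 lower. The lists were not tested against all genes.

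**Figure D4:**
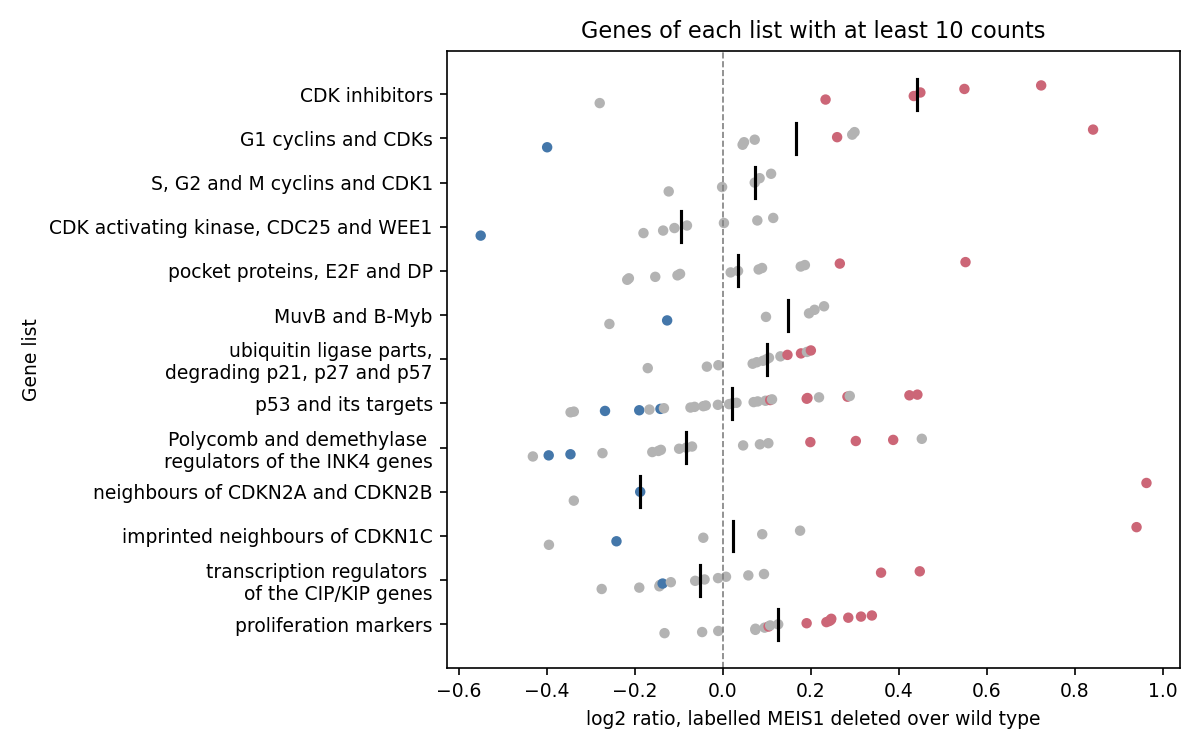
Log2 ratio of the library labelled MEIS1 deleted over wild type for genes with at least 10 counts, by list. Each point is 1 gene, red where its 95% counting interval lies above 1, blue where it lies below and grey where it includes 1, and black bars are list medians. The median of the CDK inhibitors is 0.44, and those of the pathway lists run from -0.19 to 0.17. The inhibitors were chosen because most were higher, so nothing is read from this contrast.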

How the data were processed

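Per the labels' protocols, Trizol was used to extract RNA, of which 2 µg went into an Illumina TruSeq library. The deposited tables gave for each gene an expected count (an estimated count, not scaled), an FPKM value scaled by the authors for length and depth, and a length, per the file headers. BWA, Bowtie, RSEM and hg19 are named, without versions, in the submitters' processing notes, and the role of each tool is not given in the sources used here. Of 18518 listed genes 18413 were matched by number to RefSeq symbols, genes absent from a table were taken as 0, and counts were rounded.

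Counts were scaled by TMM (edgeR 4.0.16, R 4.3.3) over genes with at least 10 counts in 1 library. Ratios used a pseudocount of 1, and their exact Clopper-Pearson 95% intervals used the counts without it. A gene was called higher or lower when that interval excluded 1. No model was fitted and no test run, since each genotype had 1 library. Reads copied by PCR are not independent, so intervals cover counting error only. A gene without counts could hold up to 3. Totals were 5202847 and 5296397 after rounding.

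The members, gene lists, rules and alternatives were chosen with earlier results of these data known. Named were all members, MEIS1, up to 4 genes per list with the largest ratios among those with 50 counts or more, of which the text gives a part, and the 3 genes nearest to the member with the largest ratio. The lower genes of the p53 list, and CDK4 and CDK6 singly, were named after their values were seen. A marker fixed in the blood cell list is not reported here and was left out of that list's values. The computation was tested on simulated data. Alternatives were DESeq2 1.42.0 size factors, total and upper quartile scaling, a pseudocount of 0.5, counts not rounded, FPKM with a pseudocount of 1 or 0.1, other minimum counts and folds, and, chosen after seeing the data, summed genes of the CDKN2A locus and counts per deposited length.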

Additional observations from a re-analysis of the deposited data

How the results depend on the processing

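All 60 alternative values of the members' log2 ratios, the summed CDKN2A locus included, stayed within the main counting interval of the gene. They ran from 0.22 to 0.25 for CDKN1A, 0.40 to 0.45 for CDKN1B, 0.52 to 0.57 for CDKN1C, 0.37 to 0.47 for CDKN2B and 0.69 to 0.74 for CDKN3 in the alternatives other than the sums, and from -2.52 to -0.74 for CDKN2C, on 8 and 1 counts. With a minimum of 1 count CDKN2C entered and 1 member was lower in place of 0. The counts of all genes at least 2-fold higher and lower, 417 and 424, were 180 and 179 from FPKM with a pseudocount of 1, 161 and 171 with a minimum of 50 counts, where fewer genes were compared, and 825 and 899 at 1.5-fold. Of 216 alternative counts of higher or lower genes per list, 4 moved by more than 1.5 times. With total count scaling the pocket protein and E2F list had 1 lower in place of 0 and the Polycomb list 1 higher in place of 3, and with DESeq2 size factors the neighbours of CDKN2A and CDKN2B and the regulators of the CIP/KIP genes each had 0 lower in place of 1. Many of the 216 had little or no room to move. The pseudocount of 0.5 could not change a call, because the intervals leave it out. The FPKM settings kept the counting interval and could change a call only where the FPKM ratio pointed the other way. All 16 shares of the summed level stayed within counting error when taken from counts per deposited length, which was chosen after seeing the data. Alternatives with TPM or an effective length were not run. No paired analysis was possible because there was 1 library per genotype. Depth limits CDKN2A, CDKN2C and CDKN2D, with at most 11 counts each.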
